A study of Homo sapiens with 16 samples.

Results

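The genes described here are 10 genes of the intercalated disc, the junction that joins heart muscle cells end to end: the connexins GJA1 and GJA5, N-cadherin (CDH2), the catenin CTNNA3, the scaffold TJP1, and the desmosomal genes DSG2, DSC2, DSP, PKP2 and JUP. They were taken by symbol from a table of 43388 genes, and all 10 were measured above 0 in every library and passed the filter of a mean of 1 TPM (reads per gene corrected for gene length and for the total of the library) over the 16 libraries. RNA was sequenced from hPSC-CMs, cardiomyocytes differentiated from the human induced pluripotent stem cell line WTC11 by the GiWi protocol, in 4 groups of 4 wells. The groups were cells in RPMI/B27 at Day 16, when the media were assigned, and cells kept to Day 30 in RPMI/B27, in RPMI_glcM/B27, which is RPMI/B27 with glucose lowered to 5 mM, or in HPLM/B27, a human plasma-like medium. Per the paper, 5 mM is the glucose level of HPLM, so HPLM/B27 and RPMI/B27 differ in glucose as well as in other components. All media held the B27 supplement, and the labels name no other agent and no genetic change. Where values are listed for the 3 media, the order is RPMI/B27, then RPMI_glcM/B27, then HPLM/B27. The design text gives 3 wells a medium and the sample labels give 4. Each library came from 1 well, and nothing in the labels ties a well to a differentiation of its own. The paper speaks of its RNA sequencing as 1 differentiation, so the p-values measure the spread between wells and not between differentiations. The same Day 16 libraries stood on the other side of all comparisons over time.

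The intercalated disc holds cells together and couples them electrically. Gap junctions are channels of connexins that pass ions and small molecules from cell to cell. Adherens junctions bind neighbouring cells through N-cadherin and tie it to actin through catenins, and desmosomes bind them through desmogleins and desmocollins and tie these to desmin filaments through plakoglobin, plakophilin and desmoplakin. GJA1 encodes Cx43, the main connexin of working ventricular muscle, while GJA5 encodes Cx40, which in the grown heart marks atrial muscle and the ventricular conduction system. Mutations of the desmosomal genes cause arrhythmogenic cardiomyopathy.

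The connexins are the members whose levels parted most, GJA5 being lower at Day 30 in every medium and GJA1 not, so the sequence before their start sites is shown. It was taken from a set of RefSeq start sites (GRCh38.p14), and the set used held 9 of the 10 members, all except PKP2. Each stretch reads 5′ to 3′ on the strand of the gene and ends where annotated transcripts begin, apart from a stretch of 30 bases that spans the start of a GJA1 transcript. GJA1 lies on the plus strand at chr6:121435595-121449727 and GJA5 on the minus strand at chr1:147756199-147773362 (GENCODE v44, GRCh38). The second GJA5 stretch precedes a start site inside the gene. Capitals mark a match to 1 of 3 motifs, searched on both strands: a T-box motif (AGGTGT), an NKX2-5 motif (TNAAGTG) and an AP-1 motif (TGANTCA).
GJA1, chr6:121435396-121435594, plus strand: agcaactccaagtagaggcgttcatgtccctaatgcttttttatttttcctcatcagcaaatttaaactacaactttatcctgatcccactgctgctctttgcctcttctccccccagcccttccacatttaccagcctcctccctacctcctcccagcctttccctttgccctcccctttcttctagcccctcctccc
GJA1, chr6:121435586-121435615, plus strand: cctcctcccagtTGAGTCAgtggcttgaaa
GJA5, chr1:147773363-147773601, minus strand: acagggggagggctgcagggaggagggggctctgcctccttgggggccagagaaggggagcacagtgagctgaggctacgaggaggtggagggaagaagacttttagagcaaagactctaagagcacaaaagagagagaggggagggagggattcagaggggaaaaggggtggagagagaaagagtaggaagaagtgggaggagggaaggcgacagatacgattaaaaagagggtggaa
GJA5, chr1:147760603-147760852, minus strand: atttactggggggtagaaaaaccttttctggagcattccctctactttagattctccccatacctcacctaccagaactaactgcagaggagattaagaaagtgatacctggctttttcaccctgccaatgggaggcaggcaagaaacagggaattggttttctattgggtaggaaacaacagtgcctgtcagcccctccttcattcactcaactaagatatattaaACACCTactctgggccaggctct
The GJA1 window held 1 AP-1 match, 48 bases before the RefSeq start. The outer GJA5 window held no match, and the inner one held 1 T-box match on the opposite strand, 23 bases before its start. Among the 250 bases before each of 35116 RefSeq start sites, 6.57% held the AP-1 letters, 9.57% the T-box letters and 8.73% the NKX2-5 letters. T-box matches also stood before the starts of DSP and DSG2, at 84 and 117 bases, and an AP-1 match at 102 bases before a CDH2 start. These matches are a description of the letters.

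Recovered reads on genes ranged from 7744768 to 16183655 a library, with 728 to 1389 reads on GJA1 but 17 to 192 on GJA5 and 42 to 170 on TJP1, the members measured least precisely. RNR1, a mitochondrial ribosomal RNA, made up 14387 and 29276 TPM of replicates 3 and 4 of Day 30 RPMI/B27 and 49.5 to 6806 TPM of the other 14 libraries. RNR2, the other mitochondrial ribosomal RNA, made up 410330 to 483359 TPM of every library, and the nuclear 7SK RNA (RN7SK) 87563 to 103682 TPM at Day 16 and 106894 to 138467 TPM at Day 30. Since TPM of a library add up to a fixed total, a second scale was used beside the deposited TPM, in which each library was divided by its median ratio to the geometric mean of all libraries (factors of 0.7882 and 0.7223 in those replicates and 0.8798 to 1.3177 in the others). On the deposited scale the 16122 genes tested had median changes (log2) of -0.28, -0.22 and -0.29 against Day 16 in the 3 media, and on the rescaled one their medians were within 0.01 of 0. Summed markers of cardiomyocytes were 13765 to 14675 TPM at Day 16, with all 10 markers detected. At Day 30 they were 13992 to 17754, 16852.5 to 18693 and 17444 to 18857 TPM in the 3 media. As deposited MYH7, MYL2, PLN and TNNI3 were higher and MYH6 lower than at Day 16 in all 3 media (limma, adjusted p under 0.05). TNNI1 was also higher in RPMI_glcM/B27, and ACTN2 lower in RPMI_glcM/B27 and HPLM/B27.

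Over the 16 libraries CDH2 was the most abundant member, with a mean of 575 TPM, ahead of PKP2 (249.8 TPM) and DSP (145 TPM). GJA1, CTNNA3, JUP, DSG2 and DSC2 followed at 73.2, 69.3, 54.9, 43.2 and 36.6 TPM, and neighbours in this order overlapped in their ranges over libraries. GJA5 (3.61 TPM) and TJP1 (2.13 TPM) were far lower. GJA5 also varied most, by 9.54-fold between its lowest and highest library, against 2.09-fold to 3.42-fold for the other members.

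**Figure D1:**
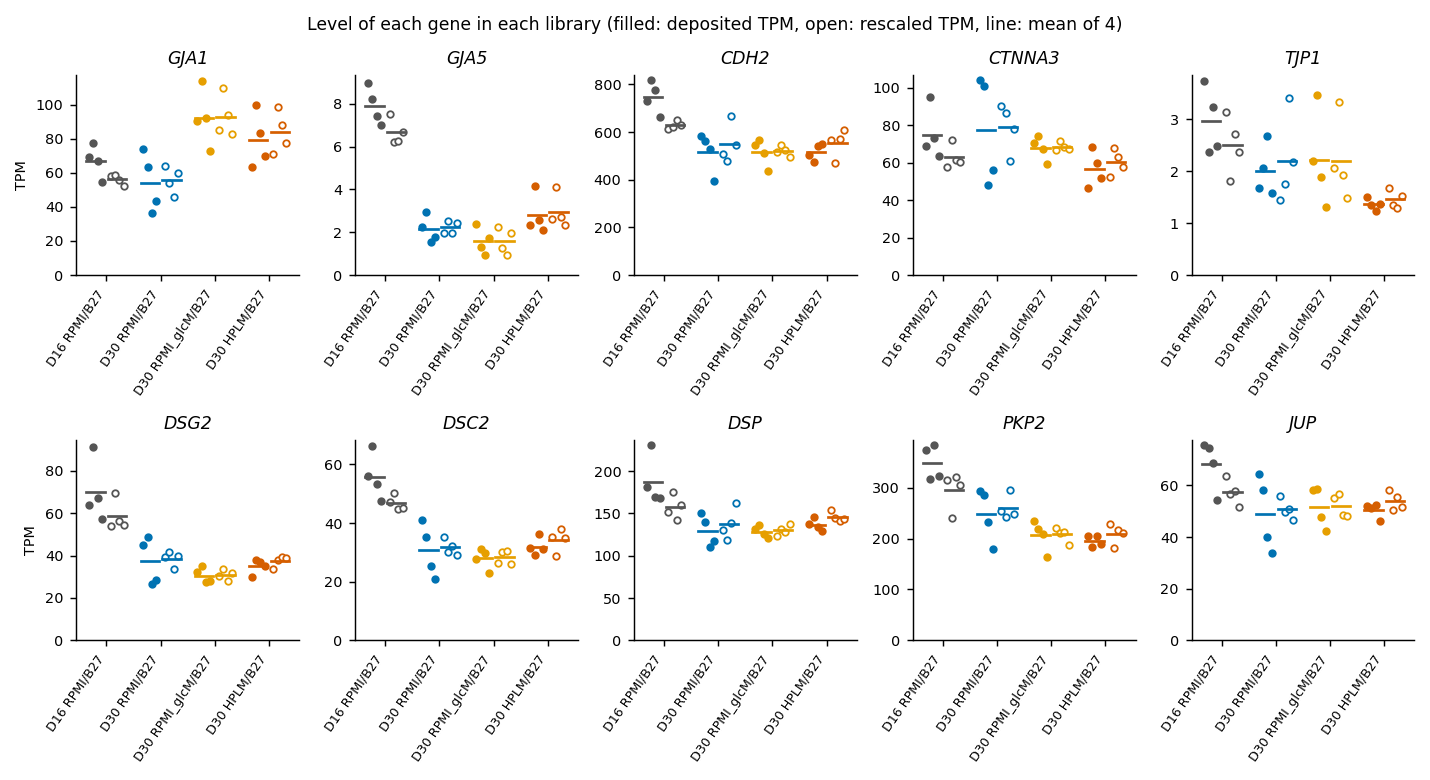
TPM (vertical axis, from 0) of the 10 genes in each of the 16 libraries by group, as deposited (filled points) and after rescaling (open points), with the mean of 4 libraries as a line. GJA5 was between 7.02 and 8.97 TPM at Day 16 and at most 4.17 TPM at Day 30, and the mean of GJA1 was highest in RPMI_glcM/B27.

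How the junction genes moved from Day 16 to Day 30 was compared within each medium. Cells at Day 30 had less GJA5, DSG2, DSC2, PKP2, CDH2 and DSP RNA than at Day 16 in all 3 media on the deposited scale, while no member was called higher. Of the 10 members, 6 were called lower in RPMI/B27, where 17.8% of all genes tested were called lower and 2.08% higher (limma, adjusted p under 0.05). In RPMI_glcM/B27 6 were called lower, against 17.8% of all genes lower and 3.34% higher, and in HPLM/B27 7, with TJP1, against 22.4% lower and 3% higher. The median member changed by -0.52, -0.53 and -0.63 (log2), and 9, 8 and 9 of the 10 lay below the median of all genes. Without the RNR1-rich replicates 3 and 4, 3 members were called lower in RPMI/B27 as deposited (GJA5, DSC2 and CDH2). The share of all genes called lower was not worked out for that fit.

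On the rescaled scale fewer members were called lower. The count was 3 in RPMI/B27 (GJA5, DSG2 and DSC2), against 8.91% of genes lower and 8.62% higher. Without replicates 3 and 4 of RPMI/B27, CDH2 and DSP were called lower there as well and CTNNA3 higher. It was 6 in RPMI_glcM/B27, against 14.2% lower and 13.4% higher, and 4 in HPLM/B27 (GJA5, DSG2, DSC2 and PKP2), against 12.5% lower and 12.9% higher. GJA1 was called higher in RPMI_glcM/B27 and HPLM/B27. The calls of GJA5, DSG2 and DSC2 held on both scales in all 3 media. In bulk RNA, fewer cells that make a gene and less of its RNA in each cell cannot be told apart.

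GJA5, the Cx40 gene, showed the largest change of the members. Its levels in replicates 1 to 4 were 8.97, 8.21, 7.44 and 7.02 TPM at Day 16 and 2.25, 2.96, 1.57 and 1.77 TPM at Day 30 in RPMI/B27. They were 2.38, 1.3, 0.94 and 1.73 TPM in RPMI_glcM/B27 and 2.32, 4.17, 2.56 and 2.11 TPM in HPLM/B27. Every library at Day 16 lay above every library at Day 30, and RPMI_glcM/B27 held the lowest values. The log2 fold change against Day 16 was -1.52 ± 0.20 (adjusted p = 0.000186) in RPMI/B27. It was -1.81 ± 0.20 (adjusted p = 1.85e-05) in RPMI_glcM/B27 and -1.26 ± 0.20 (adjusted p = 0.00045) in HPLM/B27. After rescaling it was -1.25, -1.58 and -0.98, with adjusted p of 0.000101, 6.58e-06 and 0.000492. These values use log2(TPM + 1), which understates the change of so low a gene. With a pseudocount of 0.1 TPM they were -1.87, -2.31 and -1.51. An antisense gene covers 20.3% of the exonic bases of GJA5, and the strand setting of the counting is not given in the sources used here. Summed endothelial markers were at 43.4 to 55.6 TPM at Day 16 and between 14.4 and 32.4 TPM at Day 30. Nearly all of this sum was KDR, a receptor of VEGF and the 1 of 10 endothelial markers that reached a mean of 1 TPM, with means of 46.96 TPM at Day 16 and 19.5, 20.1 and 25.7 TPM at Day 30. PECAM1 and CDH5, which define endothelial cells, were near 0, at group means of 0.122 to 0.672 TPM and 0.0940 to 0.537 TPM, both highest in Day 30 RPMI/B27, and VWF was at 0 in all groups except HPLM/B27.

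GJA1, the Cx43 gene, was not called lower in any medium. Its levels were 69.2, 77.6, 66.8 and 54.8 TPM at Day 16 and 73.9, 63.6, 36.4 and 43.3 TPM at Day 30 in RPMI/B27. The values below 50 TPM were those of replicates 3 and 4, the libraries rich in RNR1. In RPMI_glcM/B27 the levels were 90.4, 114, 92.2 and 73.1 TPM, and in HPLM/B27 63.5, 99.7, 83.6 and 69.9 TPM. As deposited, every group overlapped with Day 16. The log2 fold change against Day 16 was -0.35 ± 0.21 (adjusted p = 0.236) in RPMI/B27, 0.45 ± 0.21 (adjusted p = 0.139) in RPMI_glcM/B27 and 0.22 ± 0.21 (adjusted p = 0.438) in HPLM/B27, and no change passed the test. After rescaling the spread between libraries narrowed, to 52.1 to 58.9 TPM at Day 16, 46.1 to 64.0 in RPMI/B27, 83.1 to 109.7 in RPMI_glcM/B27 and 71.2 to 98.8 in HPLM/B27. On that scale every library of RPMI_glcM/B27 and HPLM/B27 lay above every Day 16 library. The change from Day 16 was then -0.02 in RPMI/B27 (adjusted p = 0.949), 0.71 ± 0.12 (adjusted p = 0.000385) in RPMI_glcM/B27 and 0.56 ± 0.12 (adjusted p = 0.00245) in HPLM/B27. The RPMI_glcM/B27 call was made under 7 of 11 alternatives and the HPLM/B27 call under 4 of 11, always in the direction of higher levels.

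The ratio of both connexins within a library does not depend on how the library was scaled. GJA5 per GJA1 was 0.119 ± 0.012 (mean ± SD, n = 4) at Day 16. At Day 30 it was 0.0403 ± 0.0069, 0.0179 ± 0.0083 and 0.0348 ± 0.0055 in the 3 media. The Day 16 libraries (0.106 to 0.130) lay above all others, and those of RPMI_glcM/B27 (0.0102 to 0.0264) lay below those of RPMI/B27 (0.0305 to 0.0465) and HPLM/B27 (0.0302 to 0.0418). GJA1 per CDH2, the gap junction gene relative to the adherens junction gene, was 0.0895 ± 0.0063 at Day 16 and 0.105 ± 0.025, 0.178 ± 0.016 and 0.154 ± 0.039 at Day 30 in the same order. All libraries of RPMI_glcM/B27 (0.166 to 0.201) lay above those of RPMI/B27 (0.0690 to 0.126) and Day 16 (0.0825 to 0.0949), while the lowest HPLM/B27 libraries (from 0.126) met the highest of RPMI/B27.

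**Figure D2:**
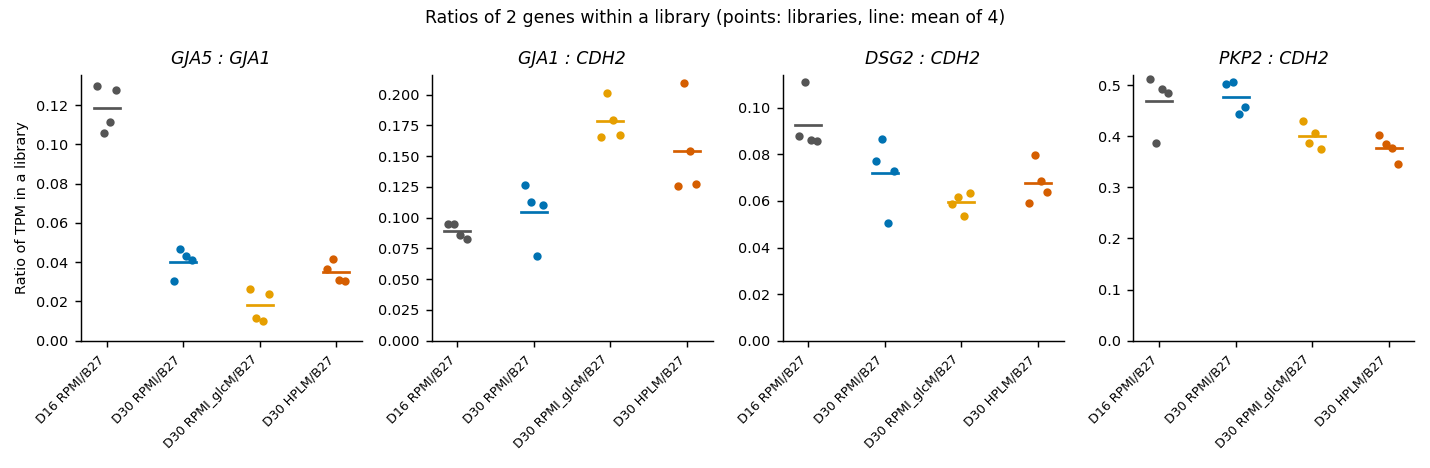
Ratio of the TPM of 2 genes in the same library (vertical axis, from 0, no unit) for GJA5 to GJA1, GJA1 to CDH2, DSG2 to CDH2 and PKP2 to CDH2. Points are the libraries of the 4 groups and lines their means. GJA5 to GJA1 dropped from 0.119 at Day 16 to 0.0179 in RPMI_glcM/B27.

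CDH2, the N-cadherin of the adherens junction, stayed the most abundant member in all groups. Its levels were 729, 820.3, 777 and 665 TPM at Day 16, and 585, 562, 527 and 393 TPM at Day 30 in RPMI/B27. They were 546, 567, 513 and 437 TPM in RPMI_glcM/B27 and 506, 476, 542 and 548 TPM in HPLM/B27. As deposited, no Day 30 library reached the lowest Day 16 library. After rescaling, RPMI/B27 replicate 3 (669 TPM) lay above all Day 16 libraries (613 to 652 TPM). Against Day 16 the log2 fold change was -0.54 ± 0.13 (adjusted p = 0.00751) in RPMI/B27, -0.54 ± 0.13 (adjusted p = 0.00603) in RPMI_glcM/B27 and -0.53 ± 0.13 (adjusted p = 0.00652) in HPLM/B27. After rescaling it was -0.21, -0.28 and -0.19 (adjusted p of 0.163, 0.0463 and 0.177), so that only the RPMI_glcM/B27 call held. With the RNR1-rich libraries left out, the rescaled RPMI/B27 change was called lower too.

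CTNNA3, the αT-catenin that links cadherin to actin and binds plakophilin-2 in heart muscle, was not called against Day 16 in any medium on either scale with all libraries. Its levels were 68.7, 94.97, 73.2 and 63.4 TPM at Day 16 and 104, 101, 48.2 and 56.3 TPM in Day 30 RPMI/B27. They were 70.5, 74.5, 67.1 and 59.0 TPM in RPMI_glcM/B27 and 46.7, 68.6, 59.7 and 52.0 TPM in HPLM/B27. RPMI/B27 held both the highest values, in replicates 1 and 2, and some of the lowest, in the RNR1-rich replicates 3 and 4. The log2 fold change there was -0.02 as deposited (adjusted p = 0.956) and 0.31 after rescaling (adjusted p = 0.0672). Without replicates 3 and 4 and after rescaling it was 0.49 (adjusted p = 0.00566). In RPMI_glcM/B27 and HPLM/B27 it was -0.13 and -0.39 as deposited (adjusted p of 0.706 and 0.19). After rescaling these changes were 0.13 and -0.06 (adjusted p of 0.443 and 0.736). The deposited HPLM/B27 change was called when the RNR1-rich libraries were left out of the fit (-0.39, adjusted p = 0.0304). Per CTNNA1, the widely expressed αE-catenin, CTNNA3 was 0.727 ± 0.056 at Day 16 and 0.799 ± 0.17, 0.624 ± 0.015 and 0.517 ± 0.049 in the 3 media. The libraries of RPMI_glcM/B27 and HPLM/B27 lay below those of Day 16 without overlap, and HPLM/B27 below RPMI_glcM/B27. CTNNA1 itself was called higher against Day 16 in all 3 media after rescaling. An antisense partner, LRRTM3, lies within CTNNA3 and covers 1.08% of its exonic bases.

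TJP1, the ZO-1 scaffold that binds connexins at the edge of gap junctions, was measured at 2.38 to 3.73 TPM at Day 16. At Day 30 it was at 1.58 to 2.68 TPM in RPMI/B27, 1.3 to 3.46 in RPMI_glcM/B27 and 1.23 to 1.49 in HPLM/B27. Only HPLM/B27 lay wholly below Day 16, at -0.73 ± 0.20 (adjusted p = 0.0142) on the deposited log2 scale and -0.50 ± 0.20 (adjusted p = 0.0773) after rescaling, where the call was lost. Without Day 16 replicate 1 the deposited call was lost too (adjusted p = 0.0525).

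The desmosomal cadherins were called lower in all 3 media on both scales. DSG2, desmoglein-2, was at 64.0, 91.3, 67.2 and 57.1 TPM at Day 16 and 45.1, 48.7, 26.7 and 28.7 TPM in Day 30 RPMI/B27. It was at 32.1, 34.9, 27.6 and 27.8 TPM in RPMI_glcM/B27 and 29.8, 38.1, 37.2 and 35.0 TPM in HPLM/B27. All Day 30 libraries lay below all Day 16 libraries. The log2 fold change was -0.91 ± 0.19 (adjusted p = 0.00383) in RPMI/B27, -1.15 ± 0.19 (adjusted p = 0.000448) in RPMI_glcM/B27 and -0.96 ± 0.19 (adjusted p = 0.00182) in HPLM/B27. After rescaling it was -0.58, -0.89 and -0.63, with adjusted p of 0.000379, 4.79e-06 and 0.000119. Without the RNR1-rich libraries the deposited change in RPMI/B27 was -0.54 (adjusted p = 0.0509).

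DSC2, desmocollin-2 and the partner of DSG2 in the desmosome, was at 56.1, 66.1, 53.4 and 47.5 TPM at Day 16 and 40.9, 35.3, 25.3 and 21.1 TPM in Day 30 RPMI/B27. It was at 27.9, 31.2, 29.9 and 23.1 TPM in RPMI_glcM/B27 and 31.6, 28.99, 36.1 and 31.3 TPM in HPLM/B27. The Day 16 libraries again lay above all others. Its log2 fold change was -0.88 ± 0.18 (adjusted p = 0.00318), -0.97 ± 0.18 (adjusted p = 0.00103) and -0.78 ± 0.18 (adjusted p = 0.00467) in the 3 media, and -0.55, -0.71 and -0.45 after rescaling (adjusted p of 0.000492, 3.19e-05 and 0.00157). Per CDH2, DSC2 was 0.0744 ± 0.0054 at Day 16 and 0.0586 ± 0.0097, 0.0543 ± 0.0031 and 0.0617 ± 0.0040 at Day 30. DSG2 per CDH2 was 0.0928 ± 0.012 at Day 16 and 0.0718 ± 0.015, 0.0594 ± 0.0042 and 0.0678 ± 0.0090 at Day 30. For RPMI_glcM/B27 and HPLM/B27 both ratios lay below Day 16 without overlap, and for RPMI/B27 they overlapped with it.

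PKP2, the plakophilin that binds desmoplakin and plakoglobin, was at 374, 318, 383 and 322 TPM at Day 16 and 294, 285, 233 and 179.7 TPM in Day 30 RPMI/B27. It was at 235, 219, 209 and 164 TPM in RPMI_glcM/B27 and 204, 183, 205 and 189.7 TPM in HPLM/B27. As deposited, all Day 30 libraries lay below those of Day 16. After rescaling, the RPMI/B27 libraries overlapped with those of Day 16. In log2 terms the change was -0.51 ± 0.15 (adjusted p = 0.0236) in RPMI/B27, -0.76 ± 0.15 (adjusted p = 0.00167) in RPMI_glcM/B27 and -0.83 ± 0.15 (adjusted p = 0.000845) in HPLM/B27. After rescaling the RPMI/B27 change was -0.18 ± 0.10 (adjusted p = 0.259) and no longer called, while RPMI_glcM/B27 and HPLM/B27 stood at -0.50 and -0.49 (adjusted p of 0.00183 and 0.00204). The RPMI/B27 call was also lost when Day 16 replicate 1 or 3 or Day 30 RPMI/B27 replicate 3 or 4 was left out (adjusted p from 0.0556 to 0.0724), and without both RNR1-rich libraries (adjusted p = 0.224). Per CDH2, PKP2 was 0.469 ± 0.056 at Day 16 and 0.477 ± 0.032, 0.400 ± 0.024 and 0.378 ± 0.024 in the 3 media. The ratios of RPMI_glcM/B27 and HPLM/B27 lay below those of RPMI/B27 without overlap.

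DSP, the desmoplakin that anchors desmin filaments, ranged over 168 to 231 TPM at Day 16 and over 109.7 to 151, 121 to 136 and 129 to 146 TPM at Day 30 in the 3 media. Its log2 fold change was -0.53 ± 0.12 (adjusted p = 0.00672), -0.53 ± 0.12 (adjusted p = 0.00497) and -0.44 ± 0.12 (adjusted p = 0.0139) as deposited. After rescaling it was -0.20, -0.27 and -0.11 (adjusted p of 0.133, 0.0282 and 0.407), and the RPMI_glcM/B27 call alone held. The deposited HPLM/B27 call was lost without Day 16 replicate 2 (adjusted p = 0.0502), and the deposited RPMI/B27 call without the RNR1-rich libraries (adjusted p = 0.0678). After rescaling without these libraries DSP was called lower in RPMI/B27. JUP, plakoglobin, a component of desmosomes and adherens junctions alike, ranged over 54.3 to 75.6 TPM at Day 16 and over 33.7 to 64.5, 42.5 to 58.8 and 46.3 to 52.5 TPM at Day 30. With all libraries it was not called in any medium on either scale, with log2 fold changes of -0.50, -0.39 and -0.42 (adjusted p of 0.059, 0.137 and 0.096). In RPMI/B27 it passed when Day 16 replicate 4 or RPMI/B27 replicate 1 or 2 was left out (adjusted p of 0.0349, 0.0148 and 0.0285), and with a minimum of 5 TPM (0.046). Without the RNR1-rich libraries it was called lower in RPMI_glcM/B27 and HPLM/B27 (adjusted p of 0.0228 and 0.0137), and in HPLM/B27 with only the 2 groups in the fit (0.0168). After rescaling its 95% intervals were -0.34 to -0.0040, -0.30 to 0.03 and -0.25 to 0.08. Relative to CDH2 the group means of JUP lay between 0.0912 and 0.1 and those of DSP between 0.250 and 0.265, and all groups overlapped.

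Median summed levels of epithelial, endothelial, fibroblast and smooth muscle markers were lower at Day 30 than at Day 16 in all 3 media as deposited. The epicardial median was lower in HPLM/B27 alone. The summed level of 15 epithelial and hepatic endoderm markers was 1378 to 2044 TPM at Day 16, 1107 to 1949 TPM in RPMI/B27, 844 to 1008 TPM in RPMI_glcM/B27 and 821 to 902 TPM in HPLM/B27. Of these markers 12 reached a mean of 1 TPM, and SOX17 was at 0 in RPMI/B27 and RPMI_glcM/B27. As deposited 8, 10 and 11 of the 12 were called lower in the 3 media against Day 16. Of all genes 17.8%, 17.8% and 22.4% were called lower. After rescaling the counts were 6, 8 and 8, against 8.91%, 14.2% and 12.5% of all genes. The keratins KRT8, KRT18 and KRT19 were then not called. KRT8 was the largest part of the sum, with means of 802 TPM at Day 16 and 777, 506 and 496 TPM at Day 30. ALB, albumin, was called higher in each medium on both scales, from a mean of 21.2 TPM at Day 16 to 241.6, 78.1 and 49.9 TPM. Fibroblast markers, 7 of 10 at a mean of 1 TPM, were at 241 to 439 TPM at Day 16 and 119 to 302 TPM at Day 30. Their medians were 284 TPM at Day 16 and 242, 144 and 148 TPM in the 3 media. Smooth muscle markers, 5 of 6 with MYH11 at 0 throughout, were at 369 to 825 TPM at Day 16 and 235 to 997 TPM at Day 30. By median they stood at 730 TPM at Day 16 and 321, 307 and 306 TPM in the 3 media. The value of 997 TPM was in RPMI/B27. Of the 8 epicardial markers 2 reached a mean of 1 TPM, with sums of 13.4 to 18.0 TPM at Day 16 and, in the 3 media, 12.4 to 30.7, 14.7 to 19.3 and 8.49 to 9.47 TPM. The ranges overlapped with Day 16 for smooth muscle markers in RPMI/B27 and HPLM/B27, for epithelial and fibroblast markers in RPMI/B27, and for epicardial markers in RPMI/B27 and RPMI_glcM/B27. The part of such cells in the levels of the desmosomal genes was not tested.

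**Figure D3:**
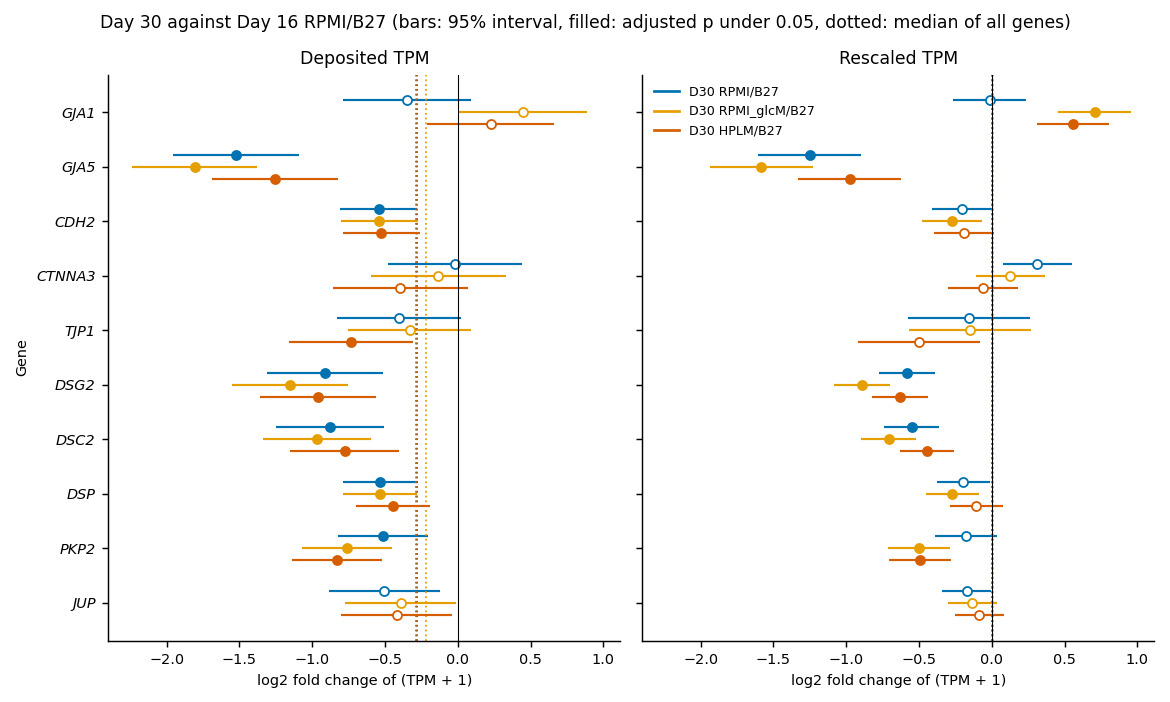
Log2 fold change of (TPM + 1) at Day 30 against Day 16 (horizontal axis) for the 10 genes in the 3 media, as deposited (left) and rescaled (right), with 95% intervals as bars and the median of all genes tested as dotted lines. Filled points have an adjusted p under 0.05. GJA5, DSG2 and DSC2 lay below the dotted lines in every medium on both scales, and GJA1 in RPMI_glcM/B27 and HPLM/B27 above them.

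Which junction genes differed between media at Day 30 was compared next, to ask what glucose and the plasma-like composition do to cells of the same age. On the deposited scale no member was called in any of the 3 comparisons. Between RPMI_glcM/B27 and RPMI/B27 2.2% of all genes were called in either direction, for HPLM/B27 against RPMI/B27 2.41%, and for HPLM/B27 against RPMI_glcM/B27 0.0682%. Of the 16122 genes, 2408, 2447 and 1053 had an unadjusted p under 0.05. After rescaling 2 members were called between RPMI_glcM/B27 and RPMI/B27 (12.1% of all genes), 2 between HPLM/B27 and RPMI/B27 (12.9%) and 0 between HPLM/B27 and RPMI_glcM/B27 (1.63%). By limma-voom on recovered reads the counts were 3, 3 and 0. The share of all genes called was worked out for the deposited and rescaled fits of all libraries alone. With the RNR1-rich replicates 3 and 4 of RPMI/B27 left out, a choice made after seeing the data, calls appeared on the deposited scale too. RPMI_glcM/B27 was then lower than RPMI/B27 in PKP2 (-0.50, adjusted p = 0.0278), DSG2 (-0.61, adjusted p = 0.0333) and CTNNA3 (-0.60, adjusted p = 0.0368), and HPLM/B27 was lower in PKP2 (-0.57, adjusted p = 0.00965) and CTNNA3 (-0.86, adjusted p = 0.00519).

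GJA1 was called higher in RPMI_glcM/B27 and in HPLM/B27 than in RPMI/B27 after rescaling. For RPMI_glcM/B27 the difference was 0.80 ± 0.21 (adjusted p = 0.0558) on the deposited log2 scale, which missed the threshold. It passed when replicate 1 or 2 of RPMI/B27 was left out (adjusted p = 0.0211 and 0.046). The lowest library of RPMI_glcM/B27 (73.1 TPM) lay just under the highest of RPMI/B27 (73.9 TPM). After rescaling the groups did not overlap and the difference was 0.72 ± 0.12 (adjusted p = 0.0014). HPLM/B27 differed from RPMI/B27 by 0.57 ± 0.21 (adjusted p = 0.18) as deposited and by 0.57 ± 0.12 (adjusted p = 0.00493) after rescaling, again without overlap on the rescaled scale. Without the RNR1-rich replicates 3 and 4 of RPMI/B27, rescaled GJA1 was still called higher in both media (0.64, adjusted p = 0.0108, and 0.49, adjusted p = 0.0288), while on the deposited scale it was not (0.41, adjusted p = 0.223, and 0.18, adjusted p = 0.507). HPLM/B27 differed from RPMI_glcM/B27 by -0.22 ± 0.21 (adjusted p = 0.942) as deposited, with a 95% interval of -0.66 to 0.22, and -0.15 after rescaling (interval -0.40 to 0.10).

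GJA5 was not called between media, although its lowest levels were those of RPMI_glcM/B27. Between HPLM/B27 and RPMI_glcM/B27 the difference was 0.55 ± 0.20 (adjusted p = 0.564) as deposited and 0.61 ± 0.17 (adjusted p = 0.089) after rescaling, where every HPLM/B27 library lay above every RPMI_glcM/B27 library. The comparison rested on 17 to 54 reads a library in RPMI_glcM/B27 and 49 to 107 in HPLM/B27. Against RPMI/B27, RPMI_glcM/B27 stood at -0.33 and HPLM/B27 at 0.27 after rescaling (adjusted p of 0.218 and 0.313).

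Of the other members, DSG2 was called lower in RPMI_glcM/B27 than in RPMI/B27 after rescaling, at -0.31 ± 0.09 (adjusted p = 0.0371) with every library lower, and not as deposited, at -0.24 ± 0.19 (adjusted p = 0.61). CTNNA3 was called lower in HPLM/B27 than in RPMI/B27 after rescaling, at -0.37 ± 0.11 (adjusted p = 0.0392), with groups that overlapped, and not as deposited, at -0.38 ± 0.22 (adjusted p = 0.461). PKP2 stood at -0.32 ± 0.10 in RPMI_glcM/B27 and at -0.32 ± 0.10 for HPLM/B27 against RPMI/B27 after rescaling, with adjusted p of 0.0501 and 0.0516 that missed the threshold. By limma-voom both PKP2 differences passed it (adjusted p = 0.0325 and 0.027). CDH2 did not pass in any of the 3 comparisons, with rescaled 95% intervals of -0.28 to 0.14, -0.19 to 0.23 and -0.12 to 0.29 for RPMI_glcM/B27 and HPLM/B27 against RPMI/B27 and for HPLM/B27 against RPMI_glcM/B27. JUP had intervals of -0.13 to 0.21, -0.08 to 0.25 and -0.12 to 0.22 in the same order, and DSP of -0.26 to 0.11, -0.09 to 0.27 and -0.02 to 0.35. DSC2 and TJP1 did not pass on either scale, the DSC2 difference of HPLM/B27 to RPMI_glcM/B27 being 0.26 ± 0.09 (adjusted p = 0.17) after rescaling.

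**Figure D4:**
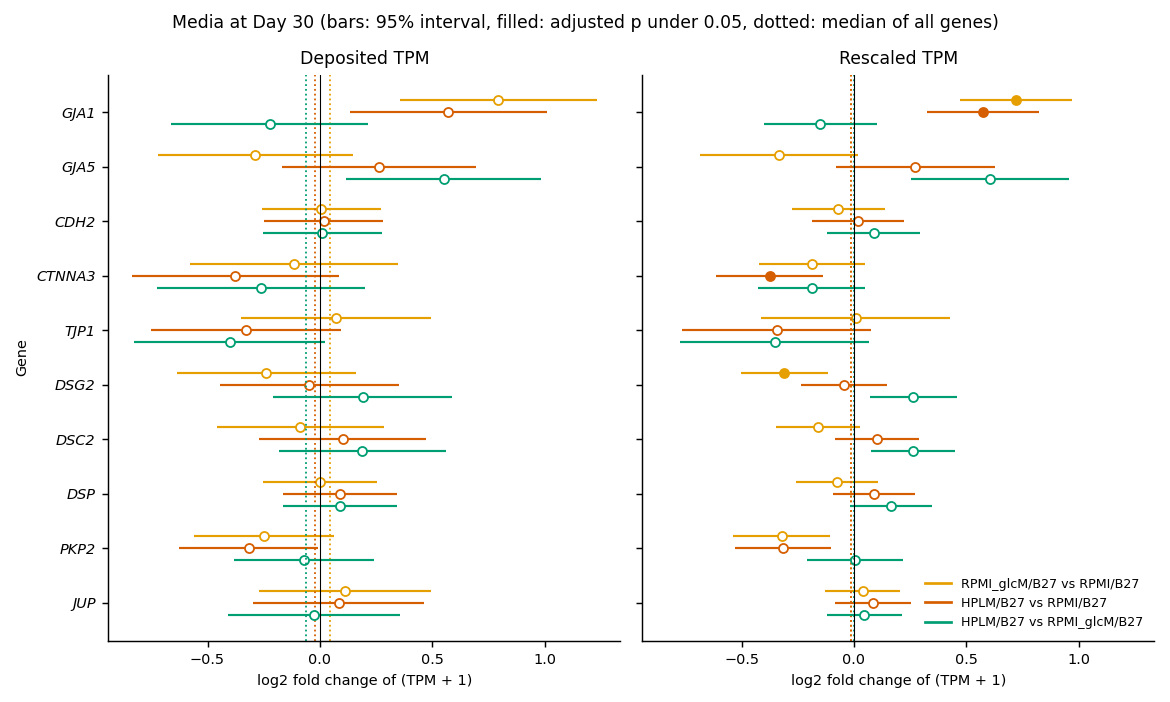
Log2 fold change of (TPM + 1) between media at Day 30 (horizontal axis) for the 10 genes, as deposited (left) and rescaled (right), with 95% intervals as bars and the median of all genes tested as dotted lines. Filled points have an adjusted p under 0.05. No point is filled on the deposited scale, and GJA1, DSG2 and CTNNA3 are the genes with filled points after rescaling.

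Further genes of the same junctions were examined as lists. Among the other connexins 5 of 19 genes reached a mean of 1 TPM. GJD2, the neuronal connexin Cx36, was called higher in RPMI/B27 against Day 16 at 0.62 ± 0.17 (adjusted p = 0.0188), from 4.61 ± 0.872 to 7.66 ± 1.63 TPM (mean ± SD, n = 4). GJD3 was called lower in HPLM/B27 at -0.76 ± 0.24 (adjusted p = 0.0289), and 0 other connexins were called in any comparison as deposited. After rescaling 3, 2 and 2 connexins were called higher in the 3 media against Day 16 and 0 lower. Of all genes 8.62%, 13.4% and 12.9% were called higher on that scale and 8.91%, 14.2% and 12.5% lower. GJD3 was then at -0.54 in HPLM/B27 (adjusted p = 0.0773). Between media 1 connexin was then called lower in RPMI_glcM/B27 than in RPMI/B27, and in HPLM/B27 1 was called higher and 2 lower, GJD2 among them. The median of the list was 0.05, -0.12 and -0.07 as deposited.

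Of 12 other genes of desmosomes and the filaments they anchor, 5 were tested, with 2 called higher and 2 lower in each medium against Day 16. Of all genes 2.08%, 3.34% and 3% were called higher and 17.8%, 17.8% and 22.4% lower in the 3 media. DES, the desmin filament protein that desmosomes anchor in muscle, was higher by 1.04 ± 0.18 (adjusted p = 0.00107) in RPMI/B27, 0.88 ± 0.18 (adjusted p = 0.00233) in RPMI_glcM/B27 and 1.91 ± 0.18 (adjusted p = 3.12e-06) in HPLM/B27. Its mean level was 3.96 ± 1.02 TPM at Day 16 and 9.17 ± 1.67, 8.06 ± 1.28 and 17.5 ± 3.09 TPM at Day 30. DES was the only gene of this list called between media. It was higher in HPLM/B27 than in RPMI/B27 by 0.87 ± 0.18 (adjusted p = 0.0146) and than in RPMI_glcM/B27 by 1.03 ± 0.18 (adjusted p = 0.0387). All libraries were higher, and both calls held after rescaling. PPL, periplakin, was higher by 0.54, 0.67 and 0.64 (adjusted p of 0.0387, 0.0115 and 0.0132). DSC3, a desmocollin of stratified epithelia, was lower, at -0.88, -0.78 and -0.53 (adjusted p of 0.002, 0.00306 and 0.0253), the last of which did not hold after rescaling (adjusted p = 0.145). PKP4 was lower, at -0.57, -0.51 and -0.63 (adjusted p of 0.0265, 0.0389 and 0.0126). The median of the list was -0.44, -0.43 and -0.51.

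Of 15 other adherens junction genes 13 were tested. As deposited 1 was called higher in each medium and 4, 4 and 3 lower in the 3 media. Of all genes 2.08%, 3.34% and 3% were higher and 17.8%, 17.8% and 22.4% lower. After rescaling 2, 4 and 4 were called higher, against 8.62%, 13.4% and 12.9% of all genes. On that scale 2, 2 and 1 were called lower, against 8.91%, 14.2% and 12.5%. ARVCF, a catenin of the p120 family, was higher in all 3 media on both scales, by 0.89 ± 0.16 (adjusted p = 0.00191), 0.66 ± 0.16 (adjusted p = 0.00878) and 0.78 ± 0.16 (adjusted p = 0.00286) as deposited. In RPMI/B27 the largest falls were of CDH13 at -0.67 ± 0.22 (adjusted p = 0.0391) and CDH11 at -0.58 ± 0.16 (adjusted p = 0.0214), and the latter did not hold after rescaling (adjusted p = 0.303). In RPMI_glcM/B27 CDH11 was at -0.70 ± 0.16 (adjusted p = 0.00566) and VCL, vinculin, at -0.58 ± 0.17 (adjusted p = 0.0235), which was at -0.32 after rescaling (adjusted p = 0.191). In HPLM/B27 NECTIN2 was at -0.66 ± 0.14 (adjusted p = 0.00374) and AFDN, afadin, at -0.52 ± 0.13 (adjusted p = 0.00905), of which AFDN held after rescaling. No gene of this list was called between media as deposited. After rescaling 1 was called higher and 1 lower in RPMI_glcM/B27 against RPMI/B27, 1 higher in HPLM/B27 against RPMI/B27 (CTNNA1), and 1 lower in HPLM/B27 against RPMI_glcM/B27.

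Of 23 other genes of the intercalated disc 20 were tested, and 3, 4 and 6 were called higher and 1, 3 and 2 lower in the 3 media as deposited, where 2.08%, 3.34% and 3% of all genes were called higher and 17.8%, 17.8% and 22.4% lower. After rescaling 6, 6 and 7 were called higher, against 8.62%, 13.4% and 12.9% of all genes, and 1, 3 and 0 lower, against 8.91%, 14.2% and 12.5%. NRAP, which links the ends of myofibrils to the disc, rose most, from 0.513 ± 0.175 TPM at Day 16 to 9.20 ± 1.96, 3.87 ± 0.851 and 6.18 ± 0.457 TPM. Its log2 fold change was 2.74 ± 0.17 (adjusted p = 1.03e-07), 1.68 ± 0.17 (adjusted p = 6.93e-06) and 2.25 ± 0.17 (adjusted p = 3.57e-07). XIRP2, an actin-binding protein of the disc, rose by 1.25 ± 0.20 (adjusted p = 0.000702), 0.84 ± 0.20 (adjusted p = 0.00684) and 1.72 ± 0.20 (adjusted p = 2.35e-05) in the 3 media, and was called on both scales. CXADR, an adhesion receptor, was lower in RPMI_glcM/B27 at -0.61 ± 0.16 (adjusted p = 0.0136) and in HPLM/B27 at -0.47 ± 0.16 (adjusted p = 0.0438), and LMO7 in HPLM/B27 at -0.44 ± 0.13 (adjusted p = 0.0221). The HPLM/B27 changes of CXADR and LMO7 were at -0.15 and -0.10 after rescaling (adjusted p of 0.156 and 0.577).

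Between media NRAP was lower in RPMI_glcM/B27 than in RPMI/B27, at -1.06 ± 0.17 (adjusted p = 0.00392), with all libraries lower. BVES and POPDC3, membrane proteins of the Popeye family, were higher in HPLM/B27 than in RPMI/B27. BVES differed by 0.96 ± 0.17 (adjusted p = 0.00516), from 135 ± 33.9 to 259 ± 24.5 TPM, and POPDC3 by 0.65 ± 0.12 (adjusted p = 0.00643), from 23.9 ± 3.06 to 37.9 ± 2.99 TPM, with all libraries higher. These calls held after rescaling. On that scale 2 genes of the list were called higher and 4 lower in RPMI_glcM/B27 than in RPMI/B27. In HPLM/B27 4 were called higher and 3 lower than in RPMI/B27, NRAP among the lower. Against RPMI_glcM/B27, HPLM/B27 was higher in 3 (BVES, NRAP and XIRP2) and lower in 0. Of all genes 12.1%, 12.9% and 1.63% were called in these comparisons. The median of this list against Day 16 was -0.16, -0.15 and -0.21 as deposited and 0.16, 0.11 and 0.12 after rescaling.

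The last list held 10 transcription factors known to act on connexin genes, all of them tested. As deposited 6, 5 and 8 were called lower in the 3 media than at Day 16, against 17.8%, 17.8% and 22.4% of all genes. After rescaling 5, 4 and 5 were called lower, against 8.91%, 14.2% and 12.5% of all genes. On that scale 2, 2 and 0 were called higher, against 8.62%, 13.4% and 12.9%, TBX18 among them in RPMI/B27 and RPMI_glcM/B27. MEF2C, a MADS-box factor of muscle, was lower, at -1.40 ± 0.16 (adjusted p = 3.93e-05), -1.44 ± 0.16 (adjusted p = 1.46e-05) and -1.16 ± 0.16 (adjusted p = 9.63e-05). TBX2, a T-box repressor of Cx43 and Cx40 genes, was lower in all 3 media, at -0.97 ± 0.19 (adjusted p = 0.00277), -0.996 ± 0.19 (adjusted p = 0.00141) and -1.09 ± 0.19 (adjusted p = 0.000717), and these calls of MEF2C and TBX2 held after rescaling. TBX3, its relative, was lower in RPMI/B27 at -1.01 ± 0.23 (adjusted p = 0.00721), and at -0.73 (adjusted p = 0.00283) after rescaling. In RPMI_glcM/B27 TBX3 was called after rescaling alone (adjusted p of 0.0524 as deposited and 0.0417 rescaled), and in HPLM/B27 as deposited alone (0.0335 and 0.0515). As deposited TBX18 alone was called higher, by 0.60 ± 0.20 (adjusted p = 0.0468) in RPMI/B27. It was lower in HPLM/B27 than in RPMI/B27, at -1.30 ± 0.20 (adjusted p = 0.00247), with all libraries lower, and levels of 18.3 ± 6.85 and 6.46 ± 0.767 TPM. TBX18 is also an epicardial marker.

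Over the 16 libraries and 6832 or 6833 genes with a mean of 10 TPM, the genes whose rescaled log2(TPM + 1) followed GJA1 most closely were PARM1, RPE and ZNF252P, with Pearson's r of 0.94, 0.93 and 0.93. Among those most like GJA5 were CD24 and BACE1 (0.93 and 0.93), and those most like CTNNA3 were ZNF226, STARD4-AS1 and LAPTM4A (0.93, 0.92 and 0.92). The libraries share 4 groups, so these values describe a common order of the groups.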

How the data were processed

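The 10 genes and the gene lists were chosen with earlier results of these data known. Per the labels and methods, the authors made stranded total RNA libraries (Takara SMARTer), aligned reads with STAR 2.5.3a to hg38 with decoy sequences, counted them on genes with featureCounts 2.0.3 and deposited TPM, counts corrected for gene length that sum to a fixed total in each library. The annotation, gene lengths and counting strand are not given in the sources used here. The authors themselves tested counts with DESeq2 in R 4.1.3.

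A linear model of log2(TPM + 1) with 1 mean for each of the 4 groups was fitted in limma 3.58.1 (R 4.3.3, trended prior variance) to the 16122 genes whose mean reached 1 TPM, with Benjamini-Hochberg adjustment over all genes tested and a threshold of 0.05. Fold changes are given ± SE and levels ± SD. Rescaled TPM were divided by median-of-ratios factors. Whole reads were recovered from the ratios of each gene's TPM between libraries for all 31047 genes above 0, and their depth covers counting error only. The statistics and the read recovery were tested on simulated data. Tables were handled in Python 3.11.15 with pandas 2.3.3 and drawn with matplotlib 3.10.9.

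All 10 genes were named in every comparison. From the lists, the genes called between media as deposited were named, with up to 2 called genes of the largest change in each direction against Day 16. For likeness, the 3 closest genes were named for GJA1, GJA5 and CTNNA3. Some genes that the naming rule or the lists hold are not reported here, although the counts include them.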

Additional observations from a re-analysis of the deposited data

Results flagged for a closer look

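Of 112 groups of 4 values examined, 3 held a library far from the other 3, where chance gives about 1 in 20. Day 16 replicate 2 stood apart for DSG2, at 69.3 rescaled TPM against 53.8 to 56.4 in the other wells, and for DSG2 per CDH2, at 0.111 against 0.0859 to 0.0878. DSG2 was called lower in all 3 media without it. DSP per CDH2 was 0.276 in RPMI_glcM/B27 replicate 4, against 0.24 to 0.244 in the other wells.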

How the results depend on the processing

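GJA5, DSG2 and DSC2 were called lower against Day 16 in every medium under each alternative that could be fitted, except DSG2 in RPMI/B27 with the 2 libraries above 10000 TPM of RNR1 left out (adjusted p = 0.0509). GJA5 was not tested at a minimum of 5 TPM. Against Day 16 in RPMI/B27 6 of the 10 genes were called as deposited. The count was 3 after rescaling, with only the 2 groups in the fit, with RNR1 as a covariate, and as deposited without the RNR1-rich libraries. After rescaling without these libraries PKP2 was not called, CDH2 and DSP were called lower beside GJA5, DSG2 and DSC2, and CTNNA3 was called higher. Between RPMI_glcM/B27 and RPMI/B27 the count was 0 as deposited. It was 1 with a minimum of 5 TPM, without mitochondrial, ribosomal and 7SK RNA, with the replicate block, and with RNR1 as a covariate, 2 after rescaling, and 3 by limma-voom and without the RNR1-rich libraries, rescaled or not. Between HPLM/B27 and RPMI/B27 it was 0 as deposited, 1 without mitochondrial, ribosomal and 7SK RNA and with the covariate, 2 after rescaling and without the RNR1-rich libraries on either scale, and 3 by limma-voom. The cause of these moves was not tested. No share of all genes was worked out for the alternatives other than rescaling, so their counts cannot be set against it. Leaving out each library gave 5 to 7, 6 and 6 to 7 genes called against Day 16 in the 3 media and 0 or 1 between RPMI_glcM/B27 and RPMI/B27, where GJA1 passed without RPMI/B27 replicate 1 or 2. CTNNA3 in RPMI/B27 against Day 16 changed sign, to 0.32 by limma-voom (adjusted p = 0.0324) and 0.49 after rescaling without the RNR1-rich libraries (adjusted p = 0.00566). Both alternatives that leave out these libraries were chosen after seeing the data. Deviations from the group means had r from -0.066 to 0.2106 between same-numbered wells, over 0.1 in 6 of 24 pairs. Between differently numbered wells r ran from -0.307 to 0.1614. Whether same-numbered wells share a source was not tested. With the replicate block the counts were 7, 7 and 8 against Day 16 and 1, 0 and 0 between media. JUP was then called in all 3 media against Day 16 (adjusted p of 0.00789, 0.0252 and 0.016). Over all genes, 354, 388 and 11 were called between media as deposited and 1945, 2083 and 262 after rescaling. Depth limits GJA5 and TJP1, at 17 to 192 and 42 to 170 reads a library.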
